A study of Mus musculus with 58 samples.

Results

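The genes of oxidative phosphorylation were followed in hematopoietic stem cells (HSCs) of mice through caloric restriction, refeeding, ageing and knockdown of the receptor gene Kdr. The members were taken by gene symbol from the RNA count files: subunits of complexes I to V of the respiratory chain that are encoded in the nucleus, and the proteins encoded by the mitochondrial genome, with pseudogene symbols ending in -ps left out. The rule found 101 of 55376 gene rows, of which 88 are nuclear and 13 mitochondrial. By complex, the nuclear members comprise 40 genes of complex I, 4 of complex II, 8 of complex III, 19 of complex IV and 17 of complex V, and the mitochondrial members comprise 7, 0, 1, 3 and 2. Among the nuclear members, 4 are annotated as processed pseudogenes in spite of their symbols (Ndufs6b, Cox6c2, Ndufb4c and Ndufa11b).

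All donors were male C57BL/6 mice. Old mice were 24 to 26 months of age: OAL mice ate freely, OCR mice had lived on 40% restriction since an age of 3 to 4 months, and OCRRF mice were OCR mice that ate freely again for 4 weeks. Young mice were 3 to 4 months of age: YAL mice ate freely, YCR mice were restricted by 20% for a week and by 40% for 3 more weeks, and YCRRF mice were refed for 4 weeks after that. RNA was sequenced from 4 libraries per group, with 2 in OCRRF, from HSCs sorted as LSK CD34-Flk2-CD150+. In a transplant experiment, old HSCs were infected with a GFP vector carrying a Kdr shRNA (Kdr, n = 4) or a scramble (GFP_Scramble, n = 2), or with GFP and mCherry vectors together that carried Kdr and Bmpr1a shRNAs (KdrBmpr, n = 4, 2 with each of 2 Bmpr1a shRNAs) or scrambles (Double_Scramble, n = 2). These cells were sorted as LSK CD48-CD150+CD45.2+ from irradiated CD45.1 female hosts, so they had been through infection and transplantation in every arm, and the Kdr knockdowns rest on 1 hairpin. Captions of the study count the diet libraries as mice, but whether a library pooled several mice, and how the transplant libraries map to hosts, is not given in the sources used here, so p-values measure only the spread between these libraries.

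Oxidative phosphorylation moves electrons from NADH, at complex I, and from succinate, at complex II, through complexes III and IV to oxygen. The proton gradient that complexes I, III and IV build drives complex V, the ATP synthase. Complex II is encoded wholly in the nucleus, while the other 4 complexes combine nuclear subunits, made in the cytosol and imported, with a core of subunits made inside the mitochondrion. HSCs at rest are known for a low reliance on respiration, and they raise it when they divide and differentiate.

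Library totals ran from 11102898 to 36579392 counts in the diet experiment and from 35657999 to 44780217 in the transplant experiment. Old libraries detected 42071 to 46646 genes and young libraries 22209 to 33496. Genes for olfactory and vomeronasal receptors together stood at 530 to 1486 per 1000000 counts in old libraries against 66.5 to 474 in young ones. Levels are given in CPM, that is, counts per 1000000 counts of the scaled library. HSC markers were present (none of 9 stayed under 1 CPM in every library). YCRRF replicate 3 stood apart: all mitochondrial genes together, rRNA included, took 4.09% of its counts, against 1.09 to 1.54% in the other YCRRF libraries. Results that rest on it are given with and without it.

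A nuclear copy of part of the mitochondrial genome had to be set apart first. On the GRCm38 genome, chr1:24611535-24616188 on the minus strand matches bases 6390 to 11042 of the mitochondrial genome at 99.936% identity, with 2 mismatches and 1 gap over 4654 bases. It holds 6 members whole, mt-Co2, mt-Atp8, mt-Atp6, mt-Co3, mt-Nd3 and mt-Nd4l, 5 of them without any difference, so reads from these genes fit both places. The difference in mt-Nd3, a complex I subunit, is T9461C, with positions counted along the mitochondrial genome and the mitochondrial base first. Capitals mark it, first at chrM:9436-9486 on the plus strand and then in the copy at chr1:24613092-24613142 on the minus strand.
mt-Nd3, mitochondrial genome: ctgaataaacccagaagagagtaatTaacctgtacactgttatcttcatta
mt-Nd3, copy on chromosome 1: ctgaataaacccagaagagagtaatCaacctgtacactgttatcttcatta
The 6 genes in the copy summed to only 5.07 to 14.2 CPM in the diet libraries and 72.3 to 127 in the transplant libraries. The 7 other mitochondrial members (mt-Nd1, mt-Nd2, mt-Nd4, mt-Nd5, mt-Nd6, mt-Co1 and mt-Cytb) summed to 5708 to 12546 and 3815 to 6267 CPM. How reads that fit several places were counted is not given in the sources used here, and the levels of the 6 genes are therefore not read as expression. Of mt-Nd4, 63.6% lies in this copy, and of mt-Co1 31.3%. Shorter or less alike copies lie elsewhere, the longest at chr2:22587288-22590534 on the minus strand with 97.362% identity over 3260 bases. With all 7 copies found, mt-Co1 lies wholly in some copy, as do 52.4% of mt-Nd5 and 49.2% of mt-Nd2, and mt-Nd1, mt-Nd6 and mt-Cytb lie in none. The part of these copies in the results was not tested. Among nuclear members, 9 of 87 with a transcript have a near-identical copy elsewhere in the genome, most of all Atp5l with 10, and their counts are uncertain for the same reason.

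**Figure D1:**
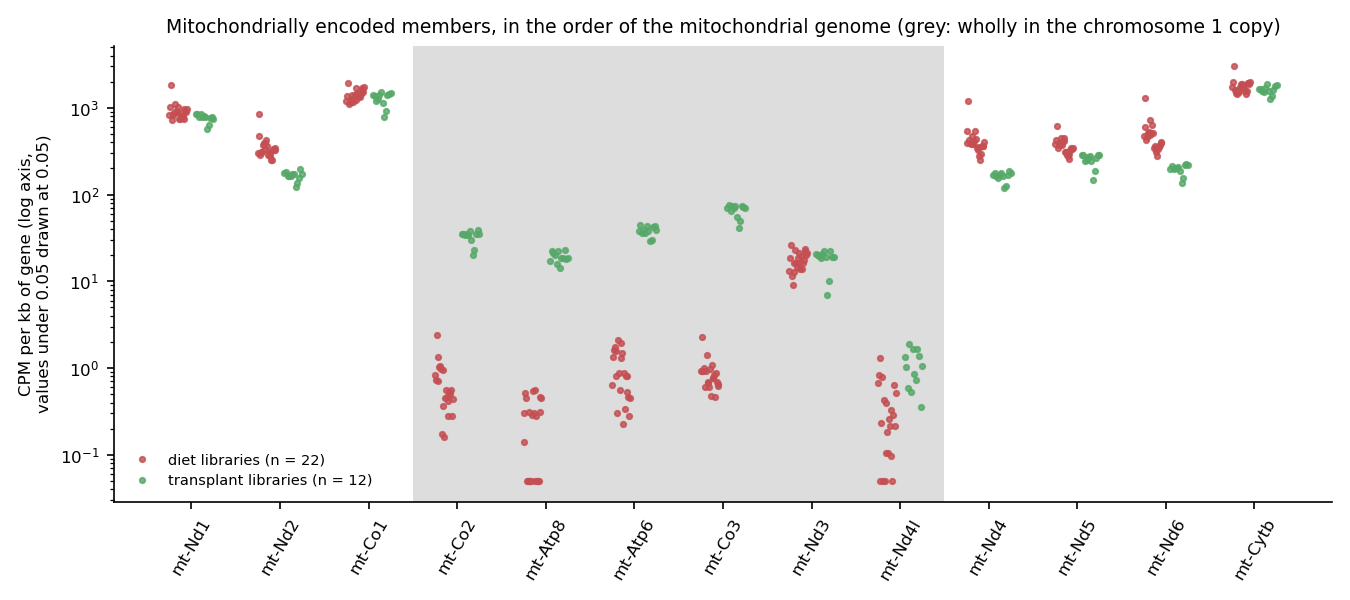
Level of the 13 mitochondrial members, as CPM per kilobase on a log axis, in each of 22 diet libraries and 12 transplant libraries (points); values under 0.05 are drawn at 0.05. The 6 genes that lie whole in the chromosome 1 copy (grey) sit far below the 7 others in both experiments.

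Per kilobase of length, all exons of a gene merged, and as a mean of the 6 diet groups, mt-Cytb, the cytochrome b of complex III, had the highest level of the 7, at 1774 CPM per kilobase. It was followed by mt-Co1, the catalytic subunit of complex IV, at 1424 and by mt-Nd1 of complex I at 902, and the complex I subunits mt-Nd6, mt-Nd4, mt-Nd5 and mt-Nd2 lay between 351 and 474. Nuclear members had a median of 59.8 CPM per kilobase over 86 genes, and 7 of them stayed under 1 CPM in every diet library. Merged exons are longer than a single transcript for most nuclear genes, and per kilobase of the longest coding transcript the nuclear median was 109.7 and the highest value 534 (Atp5b). In CPM, the highest nuclear member of each complex was Ndufa4 for complex I by its symbol (187), the flavoprotein Sdha for complex II (461), the core protein Uqcrc1 for complex III (267), Cox4i1 for complex IV (290) and the catalytic beta subunit Atp5b for complex V (1023).

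Where a subunit has isoforms, HSCs expressed mainly the widely expressed one. On the scale of CPM per kilobase, Cox4i1 stood at 187 and Cox4i2, known from lung, at 3.83. Cox6a1 stood at 206 and the heart and muscle form Cox6a2 at 0.12, and Cox8a at 309 against 0.11 for Cox8b and 0.18 for Cox8c. Cox7a2 and Cox7a2l stood at 100.04 and 82.2 and the muscle form Cox7a1 at 1.39. Cox6b2, known from testis, was an exception in size, at 23.7 beside 249 for Cox6b1. The 3 genes of the membrane ring of the ATP synthase encode the same mature protein, and Atp5g3 led them at 97.0. Atp5g2 stood at 31.8 and Atp5g1 at 22.4 CPM per kilobase, an order that rests on the length of Atp5g1, since Atp5g1 had the higher level in CPM (109.9 against 53.3).

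Summed over all members, mitochondrial members took 0.727 to 0.788% of the counts of each OAL library and nuclear members 0.971 to 1.05%. In OCR libraries the mitochondrial share was 0.609 to 0.659%, below every OAL library, and the nuclear share 0.979 to 1.13%. The log2 ratio of the mitochondrial to the nuclear share was -0.41 ± 0.08 in OAL (SD, n = 4) and -0.72 ± 0.10 in OCR (SD, n = 4), a difference of -0.31 that ran from -0.35 to -0.28 with each library left out in turn. Both OCRRF libraries, at 0.730 and 0.772%, lay above all OCR libraries and within the OAL range. In YAL the mitochondrial share was 0.606 to 0.720% and the nuclear share 1.07 to 1.19%, so OAL lay above YAL in the first and below it in the second without overlap. No test is given for these sums.

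**Figure D2:**
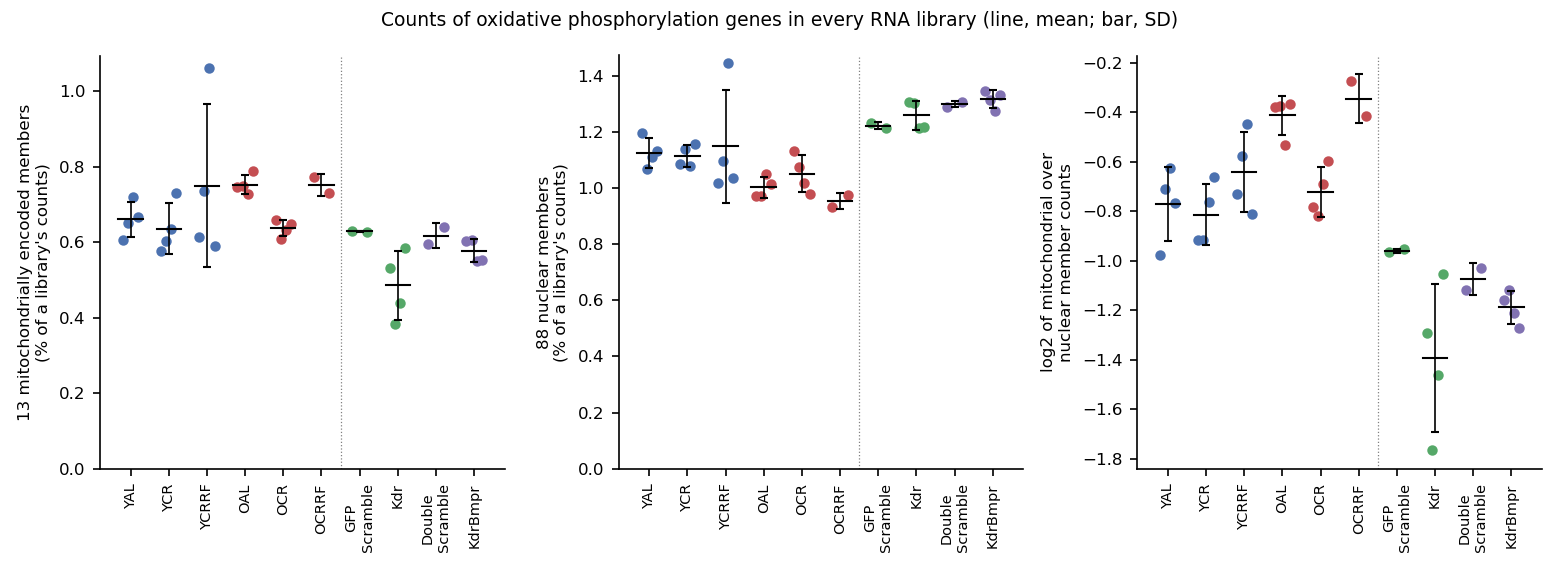
Share of each library's counts taken by mitochondrial members and by nuclear members (percent), and the log2 ratio of the first to the second, in the 6 diet groups and 4 transplant arms; points are libraries, lines means and bars SD. The ratio is lower in OCR than in OAL, and Kdr replicates 2 and 3 have the lowest mitochondrial shares of all.

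The first comparison asks what lifelong restriction does to these genes in old HSCs (OCR against OAL). Mitochondrial transcripts were lower in OCR HSCs, with 4 of the 7 genes outside the copy called, while 1 nuclear gene, Cox5a, rose and the nuclear genes as a group had a median log2 change of 0.07. A gene was called at an adjusted p below 0.05 (edgeR quasi-likelihood test, Benjamini-Hochberg over all genes) and a fold change over 1.2. Of all genes, 5.57% were called, 2.54% higher and 3.03% lower. Expressed in CPM, mt-Nd4, a membrane subunit of complex I, had levels of 501, 504, 506 and 551 in OAL and of 447, 379, 348 and 402 in OCR. All OCR libraries lay below all OAL libraries, and the log2 fold change was -0.37 (SE 0.08), with an adjusted p of 0.0052 by edgeR's quasi-likelihood test. For mt-Cytb the levels were 2186, 2201, 2146 and 2277 in OAL and 1916, 1793, 1660 and 1771 in OCR. These groups did not overlap either, and mt-Cytb fell by 0.29 on the log2 scale (SE 0.08, adjusted p = 0.0251, edgeR). mt-Nd5, another membrane subunit of complex I, stood at 602, 631, 618 and 625 CPM in OAL and at 517, 510, 465 and 534 in OCR, again apart.

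The fall of mt-Nd5 was 0.27 on the log2 scale (-0.27, SE 0.08, adjusted p = 0.0334, edgeR), and mt-Nd2 was called at -0.27 (SE 0.08, adjusted p = 0.0380, edgeR). The 3 remaining genes outside the copy did not pass: mt-Nd1 at -0.24 (adjusted p = 0.0634, edgeR), mt-Nd6 at -0.26 (0.0774) and mt-Co1 at -0.23 (0.0952). All 7 were lower at some size, as were 46.5% of all genes, and all 7 had groups that did not overlap, as did 6.06% of all genes in this direction. Since these transcripts come from a few long precursors read off the same genome, the 7 genes are not independent of each other. Of the 4 called, only mt-Cytb lies in no nuclear copy. With all diet groups in 1 fit, none of the 5 calls was made; mt-Nd4 was lost under this alternative alone of 17, while mt-Cytb was also lost on removal of 4 of the 8 libraries and mt-Nd2, mt-Nd5 and Cox5a on removal of 5. Without OAL replicate 1 or OAL replicate 4, 1 member was called in place of 5, without OCR replicate 3, 2 were, and without OCR replicates 1 or 4, 3 were.

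Among 81 nuclear members tested, Cox5a, a matrix subunit of complex IV encoded at chr9:57521274-57532426 on the plus strand, was the only one called. Its levels were 85.9, 90.0, 88.2 and 89.5 CPM in OAL and 122, 119, 96.3 and 94.2 in OCR. All OCR libraries lay above all OAL libraries, with replicates 1 and 2 the highest, and the log2 fold change was 0.30 (SE 0.09, adjusted p = 0.0424, edgeR). Of the 81, 64 were higher in OCR at some size, against 53.5% of all genes, with a median log2 fold change of 0.07 against 0.02 for all genes; without OCR replicate 1 the count was 42. Of the nuclear members, 2 were higher without overlap, against 4.45% of all genes.

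Of 8 lists of other mitochondrial genes, 6 had 1 gene called and 2 had none. The 1 gene is 1.3 to 7.14% of its list, where 5.57% of all genes were called. These calls therefore do not set the lists apart from all genes. Of 18 genes that handle mitochondrial RNA, Hsd17b10, a subunit of the mitochondrial RNase P, was called at -0.34 (log2), and of 16 that transcribe or copy the mitochondrial genome, Polg, its DNA polymerase, was called at 0.32. Ppargc1a, the coactivator known for driving mitochondrial biogenesis, was called at -0.77 among 14 regulators. Called too were the coenzyme Q gene Coq8a (-0.73, 1 of 17), the assembly gene Coa4 (-0.43, 1 of 46) and the mitochondrial ribosomal gene Mrpl18 (0.31, 1 of 77). The 13 tricarboxylic acid cycle genes and 10 carrier and coupling genes tested had no call. Among cell type markers, 4 of 9 HSC genes and 4 of 7 erythroid genes were called lower in OCR. The HSC markers summed to 3521 to 4181 CPM in OCR and 4056 to 4622 in OAL, and the erythroid markers to 32.0 to 69.1 and 35.2 to 230. The endothelial and stromal markers summed to 77.9 to 86.3 CPM in OCR and 96.5 to 121 in OAL, without overlap. Their part in the result was not tested, and in bulk samples fewer cells of a type and less RNA per cell cannot be told apart.

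**Figure D3:**
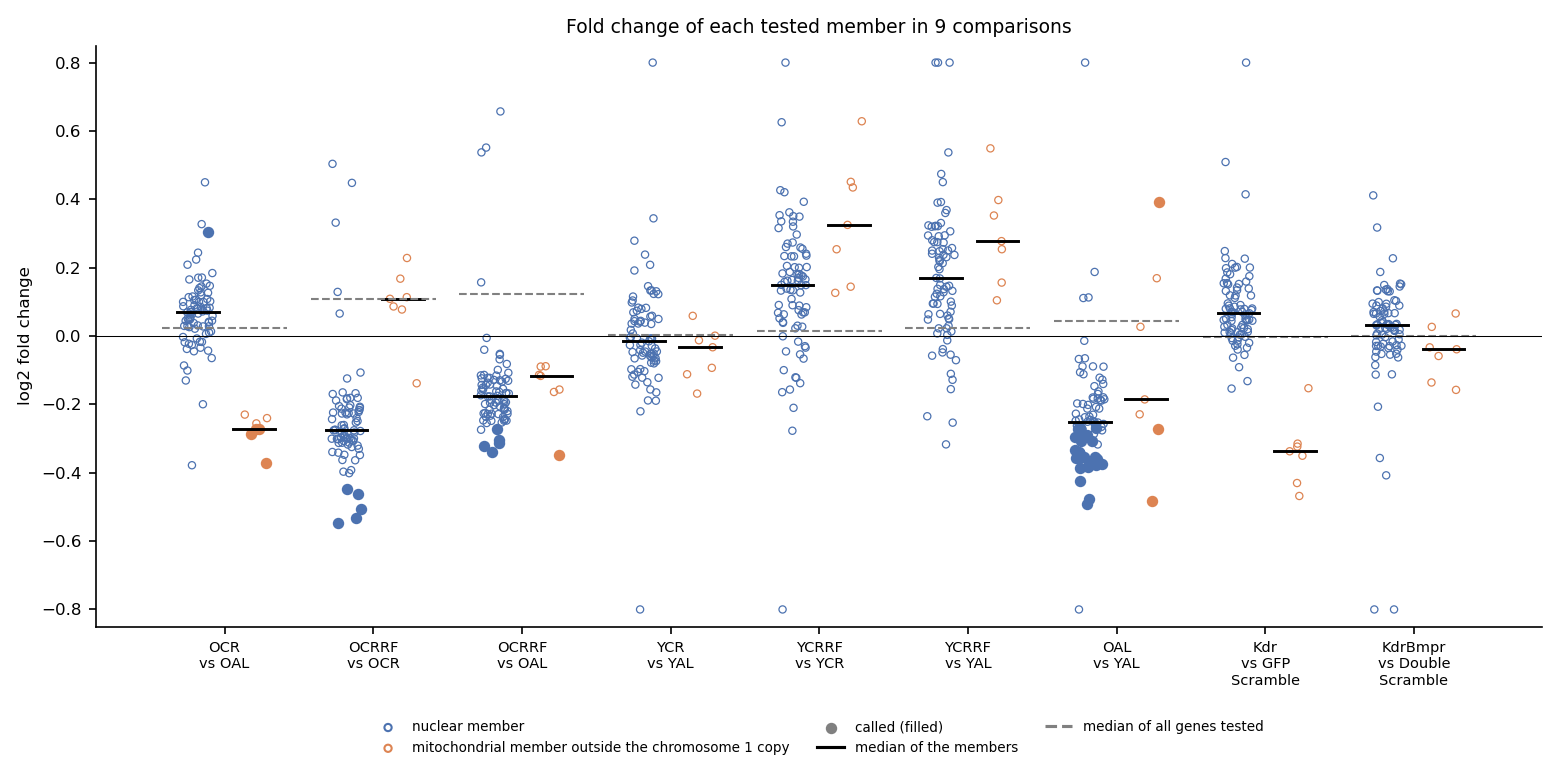
Log2 fold change of each tested nuclear member (blue) and each mitochondrial member outside the chromosome 1 copy (orange) in 9 comparisons; filled points were called, black lines are the members' medians and dashed lines the median of all genes tested, and 12 points beyond ±0.8 are drawn at the edge. Nuclear members lie below the line of all genes in both OCRRF comparisons and in OAL against YAL, and the mitochondrial genes lie below the nuclear ones in OCR against OAL and in Kdr against GFP_Scramble.

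The second comparison asks whether refeeding undoes lifelong restriction, and it sets OCRRF against OCR and against OAL. These comparisons share the OCRRF libraries with each other, and the first shares OCR and the second OAL with the comparison above. Nuclear members were mostly lower in OCRRF than in OCR HSCs, with 5 called, and no mitochondrial member was called; DESeq2 called 28 members and a fit of all diet groups none. Of all genes, 3.41% were called, 0.694% higher and 2.71% lower. Cox5a stood at 73.9 and 80.1 CPM in OCRRF, below all 4 OCR libraries and also below all OAL libraries. Its log2 fold change against OCR was -0.55 (SE 0.13, adjusted p = 0.0103, edgeR quasi-likelihood test). Called too were Cox6b2 of complex IV at -0.53 (SE 0.15), Uqcrq of complex III at -0.50 (SE 0.14), Atp5mpl of complex V at -0.46 (SE 0.13) and Ndufb6 of complex I at -0.45 (SE 0.13), with adjusted p between 0.0341 and 0.0499. Uqcrq, as an example, had levels of 76.3, 64.1, 55.3 and 54.1 CPM in OCR and of 41.7 and 50.3 in OCRRF. The groups were apart, with OCR replicate 1 the highest.

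Of the 81 nuclear members, 76 were lower in OCRRF than in OCR at some size, against 41.8% of all genes, and 59 were lower without overlap, against 13.4%. The median log2 fold change was -0.28, with 0.11 for all genes. All 4 subunits of succinate dehydrogenase, the complex with no mitochondrial gene, were lower without a call: Sdhb at -0.40, Sdhd at -0.34, Sdhc at -0.22 and Sdha at -0.18. Of the 7 mitochondrial genes outside the copy, 6 were higher, against 58.2% of all genes, with a median of 0.11, the same as that of all genes; the mt-Nd4 levels were 480 and 482 CPM in OCRRF. With scaling factors set from genes at 5 CPM or more, the median of all genes moved from 0.11 to 0.24, mt-Nd4 (0.37) and mt-Cytb (0.30) were called higher and Cox5a was the only nuclear member still called. Relative to all genes, the nuclear median was then -0.37 in place of -0.38. Rescaling shifts all genes nearly alike, so this relative value could hardly change and is no check of the result. Of all calls, 37.3% were higher with this scaling and 20.4% without. The number of members called, 5, was 0 without either OCRRF library or without OCR replicate 2, 23 without OCR replicate 3 and 17 without OCR replicate 4.

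Against OAL, which never was restricted, most members were lower in OCRRF HSCs too, and 5 nuclear members and mt-Nd1 were called; DESeq2 called 44 members and a fit of all diet groups none. The OCRRF libraries also stood apart from OAL in the olfactory and vomeronasal receptor genes (1161 and 1486 against 530 to 752 per 1000000 counts). They did so in genes detected as well (46232 and 46646 against 42071 to 43972), and the part of this in the result was not tested. Of all genes, 4.14% were called, 1.66% higher and 2.48% lower. Atp5b, at chr10:128083273-128090391 on the plus strand, stood at 923, 957, 993 and 939 CPM in OAL and at 802 and 789 in OCRRF. The groups did not overlap and each was tight, and the log2 fold change was -0.27 (SE 0.06, adjusted p = 0.0276, edgeR). Sdhd, a membrane anchor of complex II at chr9:50596357-50603812 on the minus strand, had levels of 142, 140, 149 and 140 CPM in OAL and of 116 in both OCRRF libraries. It fell by 0.31 on the log2 scale (SE 0.07, adjusted p = 0.0281, edgeR). Ndufv2, an iron-sulfur subunit of complex I (-0.34), and the ATP synthase subunits Atp5l (-0.32) and Atp5mpl (-0.30) were also called, and Atp5l is the member with the most near-identical copies. mt-Nd1 stood at 917, 892, 860 and 924 CPM in OAL, at 781, 775, 741 and 713 in OCR and at 710 and 714 in OCRRF. Its log2 fold change in OCRRF against OAL was -0.35 (SE 0.06, adjusted p = 0.0130, edgeR).

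Of 81 nuclear members, 77 were lower in OCRRF than in OAL, against 42.6% of all genes, and 55 were lower without overlap, against 16.8%; the median was -0.18, with 0.12 for all genes. All 7 mitochondrial genes outside the copy were lower, with a median of -0.12. These directions depend on the scaling: with factors from genes at 5 CPM or more, the median of all genes moved to 0.26, that of the nuclear members to -0.03 and that of all mitochondrial members to above 0 (0.03), no member was called, and 93.3% of all calls were higher in place of 40.1%. Relative to the median of all genes, the nuclear median was -0.30 under both scalings. Rescaling shifts all genes nearly alike, so this relative value could hardly change and is no check of the direction. With OCRRF at 2 libraries, leaving out either gave no called member, and without OAL replicates 2, 3 or 4 only 1 was called and without OAL replicate 1 only 3.

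Genes that serve the same complexes were mostly lower in OCRRF at some size, and few were called. Of 77 mitochondrial ribosomal protein genes, 76 were lower in OCRRF than in OCR with 2 called (Mrps10 at -0.50, Mrpl12 at -0.47), and 76 were lower than in OAL with 6 called. These calls are 2.6 and 7.79% of the list, where 2.71 and 2.48% of all genes were called lower. All 13 genes of the tricarboxylic acid cycle were lower than in OCR, of which citrate synthase (Cs, -0.43) was called, 7.69% of the list. The ADP/ATP carrier Slc25a5 (-0.59), the outer membrane channel Vdac3 (-0.44) and cytochrome c (Cycs, -0.59) were called lower than in OCR, and Ppargc1a was called higher (0.75). Called lower were 18.2% of 11 carrier and coupling genes and 5.88% of 17 electron carrier and coenzyme Q genes, against 2.71% of all genes. Of 14 regulators, 7.14% were called higher and 7.14% lower, against 0.694 and 2.71% of all genes. In lists this short, 1 call makes a large share. Of 46 assembly genes, 38 were lower than in OCR and 44 were lower than in OAL, without a call in either. With scaling from genes at 5 CPM or more, the counts lower fell to 67 and 57 of 77 for the ribosomal proteins and to 27 and 31 of 46 for assembly, none of them called. Against OCR, 12 of 13 tricarboxylic acid cycle genes were then lower, without a call. Of the carrier and coupling genes 2 were called lower, and of the electron carrier and coenzyme Q genes 1 lower and 1 higher. Relative to the median of all genes, the ribosomal median was then -0.35 and -0.33, values that rescaling could hardly change. Against OCR, 3 of 7 erythroid markers were called higher (52.1 and 155 CPM summed in OCRRF, 32.0 to 69.1 in OCR) and 3 of 4 megakaryocyte markers tested were called lower (208 to 209 and 238 to 337 CPM), and against OAL 3 of 9 HSC markers were called lower. Their part in the result was not tested.

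**Figure D4:**
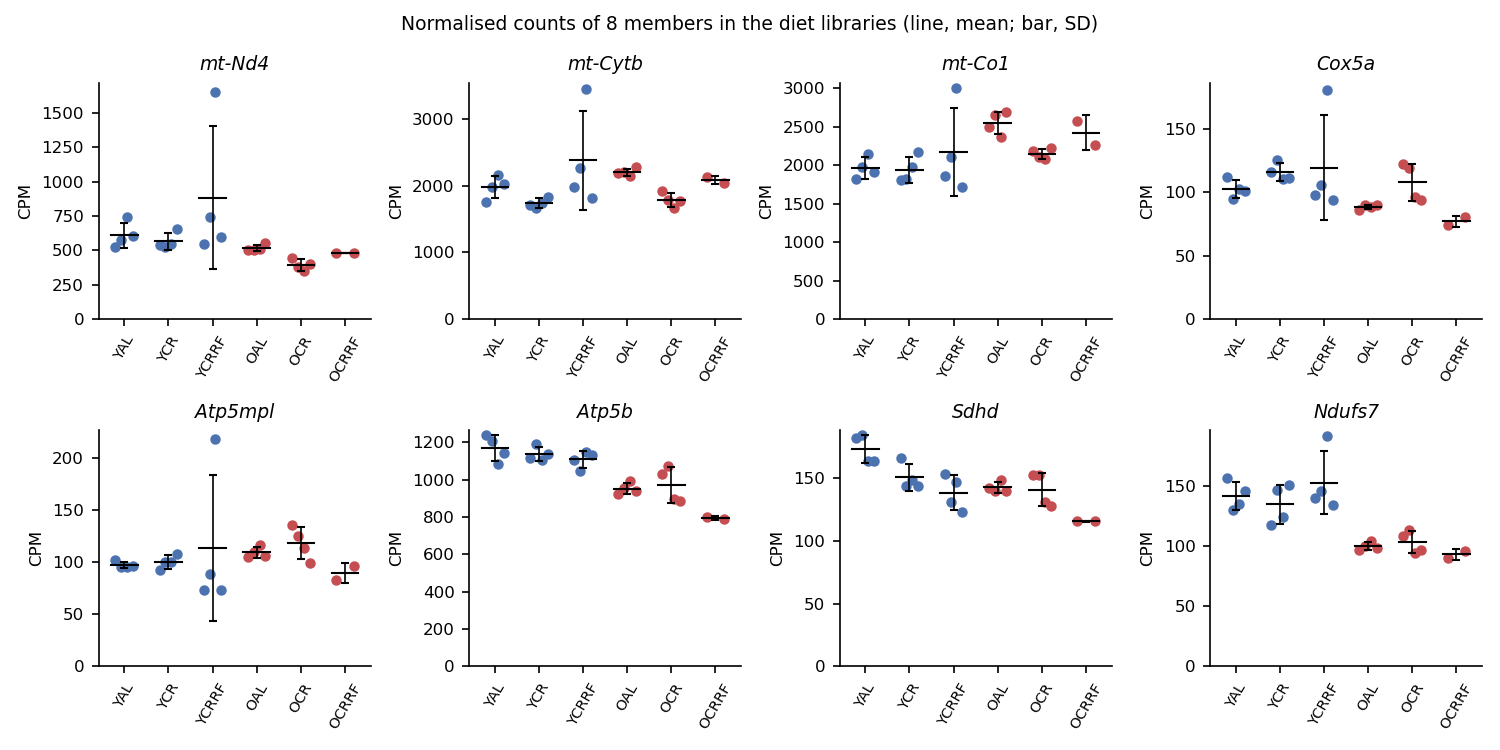
Level (CPM, axes from 0) of 8 members in each library of the 6 diet groups; points are libraries and lines means. mt-Nd4 and mt-Cytb are lower in OCR than in OAL, Cox5a and Atp5mpl are lower in OCRRF than in OCR and OAL, Atp5b is lower in OCRRF than in OAL, Ndufs7 is lower in old than in young groups, and YCRRF replicate 3 stands above the rest for several genes.

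The third comparison is that of age in freely fed mice (OAL against YAL). Old mice came from the NIA Aged Rodent Colony and young mice from The Jackson Laboratory. Age, mouse source and any difference in library preparation between the young and old experiments cannot be told apart. Nuclear subunits of all 5 complexes were lower in old HSCs: 26 of 80 tested were called lower and none higher, where 14.8% of all genes were called, 6.89% higher and 7.93% lower. The called genes comprised 13 of 36 in complex I, 2 of 4 in complex II, 3 of 8 in complex III, 4 of 15 in complex IV and 4 of 17 in complex V. The gene with the lowest adjusted p was Uqcrc1, a core protein of complex III at chr9:108936633-108949623 on the plus strand. Its levels were 236, 228, 243 and 231 CPM in OAL and 315, 307, 290 and 326 in YAL. The groups lay far apart, with a log2 fold change of -0.39 (SE 0.06, adjusted p = 0.0036, edgeR quasi-likelihood test). Ndufs7, an iron-sulfur subunit of complex I at chr10:80249121-80256794 on the plus strand, had levels of 96.6, 100.03, 104 and 98.8 CPM in OAL and of 157, 130, 135 and 146 in YAL. It fell by 0.49 on the log2 scale (-0.49, SE 0.08, adjusted p = 0.0037, edgeR), again without overlap.

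The next genes by adjusted p were Atp5a1 (-0.27) and Atp5b (-0.28), the alpha and beta subunits that form the catalytic head of the ATP synthase, Ndufb7 (-0.48), Ndufs8 (-0.38) and Ndufa10 (-0.35) of complex I, Cox6a1 (-0.38) of complex IV, Uqcr10 (-0.37) of complex III and Atp5h (-0.36) of complex V, with adjusted p of 0.0103 to 0.0137. In complex II, Sdhb, which carries iron-sulfur clusters, was called at -0.36 and Sdhd at -0.27, and Sdha stood at -0.18 with an adjusted p of 0.0558 (edgeR). Of the 80, 76 were lower in OAL at some size, against 46.6% of all genes, 40 were lower without overlap, against 11.5%, and the median was -0.25, with 0.05 for all genes.

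The mitochondrial genes went different ways with age. mt-Co1 stood at 2501, 2650, 2367 and 2688 CPM in OAL and at 1816, 1975, 2145 and 1916 in YAL, apart in all libraries. Its log2 fold change of 0.39 (SE 0.06, adjusted p = 0.0033, edgeR) was the only rise called among the members. mt-Nd6, the one member encoded on the light strand of the mitochondrial genome, had levels of 181, 195, 207 and 209 CPM in OAL and of 252, 268, 331 and 266 in YAL, and fell by 0.48 (-0.48, SE 0.09, adjusted p = 0.0076, edgeR). mt-Nd5 stood at 680, 750, 824 and 763 CPM in YAL, above all OAL libraries, and was called at -0.27 (SE 0.06, adjusted p = 0.0168, edgeR). Whether the counting used strand is not given in the sources used here, and the part of mt-Nd6 that overlaps RNA of the opposite strand cannot be told apart from it.

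With scaling from genes at 5 CPM or more, the median of all genes moved by 0.11 to 0.16. The nuclear median relative to all genes was -0.30 under both scalings, a value that rescaling could hardly change. Under that scaling 4 nuclear members were still called lower (Uqcrc1, Ndufs7, Ndufs8 and Ndufb7), Atp5mpl was called higher at 0.30, mt-Co1 and mt-Cytb were called higher, mt-Nd6 lower, and 70.5% of all calls were higher in place of 46.5%. Ndufb7, Ndufs7, Ndufs8, Uqcrc1 and mt-Co1 kept their call in all 17 alternatives run. The 29 members called became 9 without OAL replicate 1, 15 without OAL replicate 2, 19 without OAL replicate 4 and 46 without YAL replicate 2.

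Genes that build and maintain mitochondria were also mostly lower with age, and the share called is to be read against the 7.93% of all genes called lower. Of 77 mitochondrial ribosomal protein genes, 75 were lower in OAL and 23 (29.9%) were called lower, led by Mrps26 (-0.62), Mrps12 (-0.57) and Mrpl12 (-0.66). All 13 tricarboxylic acid cycle genes were lower and 4 (30.8%) were called, among them fumarase (Fh1, -0.48) and isocitrate dehydrogenase subunits (Idh3b at -0.32, Idh3g at -0.29). Of 16 genes that transcribe or maintain mitochondrial DNA, 14 were lower and 5 (31.2%) called, among them the polymerase Polg (-0.55), the packaging factor Tfam (-0.38) and the single-strand binding protein Ssbp1 (-0.28). Of 46 assembly genes, 39 were lower and 4 (8.7%) called lower, a share near that of all genes, among them Bcs1l (-0.45), Ndufaf4 (-0.50) and Ndufaf5 (-0.69), and of 18 RNA processing genes 17 were lower and 3 (16.7%) called, Fastk (-0.44), Fastkd5 (-0.66) and Pde12 (-0.45). Pprc1, a coactivator of the family of Ppargc1a, was called at -0.62. With scaling from genes at 5 CPM or more, 65 of 77 ribosomal genes were lower with 7 called, and of the tricarboxylic acid cycle, mitochondrial DNA, assembly and RNA processing genes 1 each was called lower. Beside this, 4 of 5 B cell markers were called lower in OAL (37.3 to 42.2 against 61.9 to 116 CPM summed), and the granulocyte and monocyte markers summed to 250 to 381 CPM in OAL and 137 to 806 in YAL. Genes that the sort selects against (Cd34, Flt3 and Il7r) summed to 128 to 161 CPM in OAL and 172 to 219 in YAL, and T cell markers to 2.53 to 3.25 and 1.32 to 1.87, both without overlap. The larger number of genes detected in old libraries also moved with age. The part of these in the result was not tested.

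In young mice, 4 weeks of restriction and 4 weeks of refeeding left no member called in any of 3 comparisons, which share their groups. In YCR against YAL, 0.364% of all genes were called, and 4 nuclear members and 1 mitochondrial member had an unadjusted p below 0.05 by edgeR's quasi-likelihood test, as did 9.29% of all genes. DESeq2 called 1 member there, Ndufa4l2, a gene that reached at most 1.23 CPM in any diet library. The median log2 fold change was -0.01 for nuclear members and -0.03 for the mitochondrial genes outside the copy. The mt-Nd4 levels were 526, 574, 740 and 601 CPM in YAL and 535, 524, 545 and 656 in YCR, with wide overlap. In YCRRF they were 545, 742, 1653 and 593 CPM, with replicate 3 at more than any other diet library.

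In YCRRF against YCR, 0.0102% of all genes were called and 2 nuclear members and 1 mitochondrial member passed an unadjusted p of 0.05 (edgeR), as did 7.27% of all genes, with none called by DESeq2. Nuclear members were higher for 65 of 81, against 51.7% of all genes, with a median of 0.15, and the mitochondrial genes outside the copy had a median of 0.33. Without YCRRF replicate 3 the direction turned: 18 of 81 were higher, and the medians were -0.11 and -0.05. The same held for YCRRF against YAL, where edgeR called 0% of all genes, 1 nuclear member passed an unadjusted p of 0.05, as did 3.69% of all genes, and DESeq2 called no member: 69 of 81 were higher with all libraries, against 52.9% of all genes, and 12 of 81 without replicate 3. Cox5a is an example, at 97.4, 106, 181 and 93.5 CPM in the YCRRF libraries. No direction is therefore given for refeeding in young mice.

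The effect of restriction was then compared between ages in 1 model, as OCR against OAL minus YCR against YAL. No member differed at the threshold, where 0.0318% of all genes did; 2 nuclear and 2 mitochondrial members had an unadjusted p below 0.05 by edgeR, as did 8.8% of all genes, and DESeq2 called none. The 7 mitochondrial genes outside the copy all had a more negative effect in old mice, as did 53.4% of all genes, with a median difference of -0.23, and the nuclear members a median of 0.07. A different response of the members to restriction in old and young mice is thus not shown.

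The last comparisons ask what knockdown of Kdr, alone or with the receptor gene Bmpr1a, does in transplanted old HSCs. Kdr itself stood at 6.04 and 6.07 CPM in GFP_Scramble and at 1.93, 2.21, 3.28 and 2.03 in Kdr libraries. It was lower in all of them, at a log2 fold change of -1.35 (SE 0.25), but did not pass the adjustment (adjusted p = 0.247, edgeR). In KdrBmpr libraries Kdr stood at 1.24, 0.555, 1.60 and 1.35 CPM, below both Double_Scramble libraries at 3.97 and 4.62. Bmpr1a stood at 4.44, 0.656, 2.22 and 0.595 CPM in KdrBmpr, against 5.21 and 4.43 in Double_Scramble, so 1 KdrBmpr library lay within the range of its controls.

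In Kdr against GFP_Scramble no member was called, where 0.0149% of all genes were; 2 nuclear and 4 mitochondrial members had an unadjusted p below 0.05 by edgeR's quasi-likelihood test, as did 8.9% of all genes, and DESeq2 called none. mt-Co1 had levels of 2241 and 2268 CPM in GFP_Scramble and of 1760, 1203, 1412 and 2145 in Kdr libraries. All Kdr libraries were lower, replicates 2 and 3 most and replicate 4 least, and the log2 fold change of -0.47 had an adjusted p of 0.525 (edgeR). For mt-Cytb the levels were 2041 and 2074 against 1812, 1433, 1555 and 1817 CPM, with a log2 fold change of -0.31 (SE 0.10, adjusted p = 0.40, edgeR). mt-Nd5 stood at 517 and 524 CPM in GFP_Scramble and at 446, 270, 343 and 486 in Kdr. All 7 genes outside the copy were lower at some size, as were 50.4% of all genes, with a median of -0.34, and 6 of them without overlap, against 11.3% of all genes.

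Nuclear members leaned the other way after Kdr knockdown: 68 of 83 were higher, against 49.6% of all genes, 17 of them without overlap, against 10.6%, with a median of 0.07. The mitochondrial share of counts was 0.627 and 0.630% in GFP_Scramble and 0.533, 0.383, 0.440 and 0.586% in Kdr, and the log2 ratio of mitochondrial to nuclear share differed by -0.43, from -0.55 to -0.31 with each library left out. The mitochondrial 16S rRNA, mt-Rnr2, which is no member, was lowest in the same Kdr replicates 2 and 3, at 484 and 720 CPM against 1241 and 1245 in GFP_Scramble. Granulocyte and monocyte markers summed to 1925, 3185, 918 and 2094 CPM in Kdr and to 441 and 2136 in GFP_Scramble, with overlap. Without overlap, HSC markers were lower in Kdr (2721 to 3122 against 3309 to 3512 CPM), and B cell markers (36.6 to 52.9 against 29.2 to 35.9) and endothelial and stromal markers (85.7 to 120 against 81.9 to 83.3) were higher. Higher without overlap too were Cd34, Flt3 and Il7r together (485 to 580 against 394 to 470), whose proteins the sort of the transplant libraries did not gate on. None of these markers was called, and their part in the result was not tested.

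In KdrBmpr against Double_Scramble no member was called either, where 0.00498% of all genes were; 6 nuclear members and 1 mitochondrial member had an unadjusted p below 0.05 by edgeR, as did 9.85% of all genes, and DESeq2 called none. Nuclear members were higher for 56 of 83, against 49.9% of all genes, 19 of them without overlap, against 10.6%, with a median of 0.03. The mitochondrial genes outside the copy had a median of -0.04, with 5 of 7 lower, against 50.1% of all genes, and the mitochondrial share of 0.551 to 0.605% overlapped the 0.594 and 0.641% of Double_Scramble. The difference between the single and the double knockdown was not tested.

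Chromatin at the promoters of the nuclear members was read in the old groups for which files were given. In OCR HSCs, H3K4me3, the mark of active promoters, had a median signal of 35.1 per base around the start of 85 members, against 10.5 for all 25127 genes in the deposited table, and 76 of the 85 lay above the median of all genes. H3K27me3, the mark laid down by Polycomb, had a median of 0.160 against 0.341, and 7 of 85 lay above the median of all genes. These 7 were Ndufa4l2, which had the most at 4.32, Cox8c, Cox6a2, Cox7b2, Cox4i2, Ndufb4c and Ndufa11b, so some isoforms at low RNA levels were among them, while Cox7a1 (0.130) and Cox8b (0.162) were not. The highest H3K4me3 was at Atp5a1 (50.7), Atp5c1 (48.5) and Atp5b (48.0), all of the ATP synthase. Values are means of 2 libraries, and OAL libraries of these marks were not analysed here, so no comparison between diets is made.

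**Figure D5:**
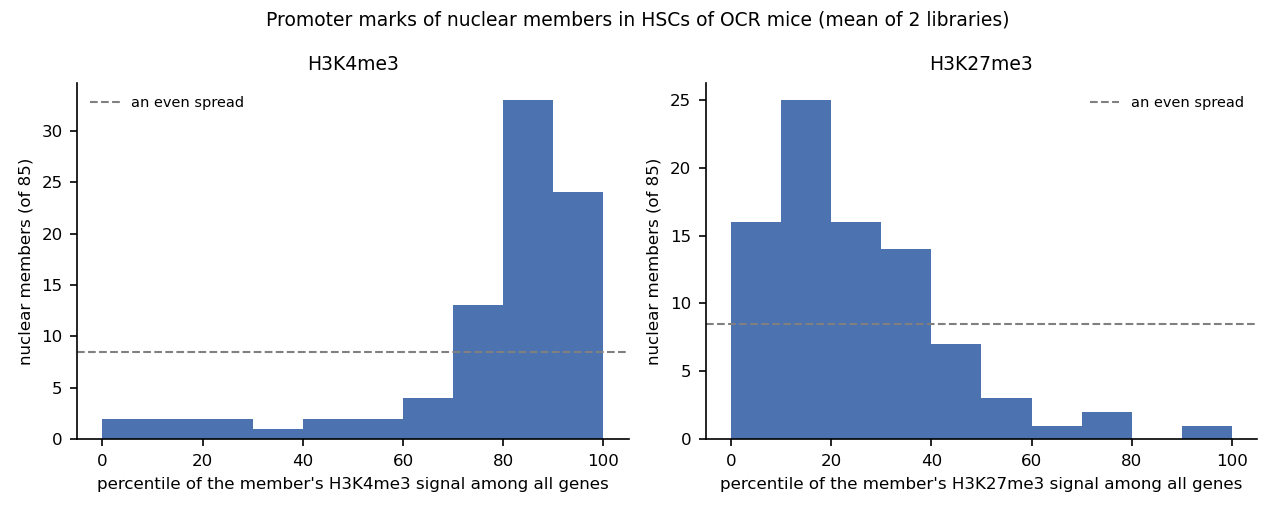
Histograms of the percentile, among all genes of the deposited tables, of the H3K4me3 signal and of the H3K27me3 signal at 85 nuclear members in OCR HSCs (mean of 2 libraries). Members crowd the high end for H3K4me3, with 76 of 85 above the middle, and the low end for H3K27me3, with 7 of 85 above it.

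The promoters of 67 nuclear members in RefSeq (GRCm38.p6, 250 bases before to 50 after the start) were searched on both strands for words of factors known at such genes. The word of NRF1, GCATGCGC, was in 14.9% of them and in 3.05% of the promoters of all genes. The word of the ETS family, to which GABPA and PU.1 belong, CGGAAG, was in 40.3% against 18.8%, and the YY1 word ATGGCG in 26.9% against 10.2%, while TATAAA was in 11.9% against 15.7%. A match is a description of letters and not a binding site. The 250 bases before the start are shown for Cox5a, called in OCR and in OCRRF (chr9:57520982-57521231, plus strand), Sdhd, called in OCRRF and in OAL (chr9:50603850-50604099, minus strand), and Cox6a1, called with age (chr5:115348959-115349208, minus strand). Capitals mark the ETS word or its reverse complement. They also mark the YY1 word, in Cox5a, and the NRF1 word of both strands, which overlap, in Cox6a1.
Cox5a: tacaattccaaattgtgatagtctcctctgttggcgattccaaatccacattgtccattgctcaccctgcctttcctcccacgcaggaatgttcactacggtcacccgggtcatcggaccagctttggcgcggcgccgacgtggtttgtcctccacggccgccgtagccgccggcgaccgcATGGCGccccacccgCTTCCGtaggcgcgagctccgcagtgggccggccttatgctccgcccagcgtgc
Sdhd: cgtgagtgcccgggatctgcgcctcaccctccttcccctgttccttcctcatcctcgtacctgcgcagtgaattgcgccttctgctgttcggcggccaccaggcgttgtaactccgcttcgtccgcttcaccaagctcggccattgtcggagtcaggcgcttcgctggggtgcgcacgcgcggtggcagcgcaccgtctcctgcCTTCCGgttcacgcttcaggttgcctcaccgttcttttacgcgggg
Cox6a1: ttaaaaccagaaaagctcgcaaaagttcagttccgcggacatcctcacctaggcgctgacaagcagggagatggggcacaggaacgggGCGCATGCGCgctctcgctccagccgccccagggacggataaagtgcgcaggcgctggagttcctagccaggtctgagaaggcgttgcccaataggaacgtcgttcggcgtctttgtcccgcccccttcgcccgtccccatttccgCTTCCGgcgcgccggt
Each of the 3 carries the ETS word before the start, at position -54 in Cox5a, -46 in Sdhd and -16 in Cox6a1, and Cox5a alone has ATGGCG before the start.

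Open chromatin was compared between OCRRF and OCR by ATAC-seq (2 and 4 libraries, 15721335 to 19558148 counts in peaks). Of 85 members, 74 had a peak within 1 kb of the start, against 66.6% of all genes, and none of the 76 peaks was called, where 0.221% of all peaks were (adjusted p below 0.05 by edgeR, fold over 1.5). DESeq2 called none, and 9 peaks had an unadjusted p below 0.05, as did 11.7% of all peaks, 3 higher and 6 lower. The lowest adjusted p was 0.162 (edgeR), at the peak of Atp5mpl, chr12:111966375-111967399. Its level was 9.91 and 8.02 CPM in OCRRF and 15.0, 12.1, 10.3 and 12.5 in OCR, at a log2 fold change of -0.48 (SE 0.15). The groups were apart by little. Atp5mpl is also one of the genes with lower RNA in OCRRF, but 76 of the 81 nuclear members were lower than in OCR, so nearly any peak would match. The peak of Cox5a stood at -0.03 and that of Sdhd at -0.19. The median over the 76 peaks was -0.02, with 36 higher, against 49.1% of all peaks, and 40 lower. Peaks at the starts of all genes are the closer set. Over 17683 of these tested, the median was 0.02 and 46.1% were lower.

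PU.1, a transcription factor of the ETS family that directs myeloid and lymphoid fates, had peaks within 1 kb of the start of 5 and 4 of the 85 members in the OAL libraries (5.88 and 4.71%), of 10 and 5 in OCR (11.8 and 5.88%) and of 4 and 5 in OCRRF (4.71 and 5.88%). All genes had 2.91 and 2.65%, 5.16 and 3.54%, and 2.44 and 2.01%, so the members' share was the higher in each of the 6 libraries, without a test, and the number of peaks per library ran from 2262 to 5464. Members also had an ATAC peak near the start more often than all genes (74 of 85 against 66.6%), and the part of this was not tested. Labels name an antibody for the first library of each group and a batch for the second, so antibody, batch and replicate cannot be told apart. Atp5c1, the gamma subunit of the ATP synthase, and Ndufb9, of complex I, had a peak in all 6 libraries. The fold enrichment at Ndufb9 was 15.3 and 16.9 in OAL, 21.9 and 17.1 in OCR, and 16.3 and 15.4 in OCRRF. OCR library 1 was the highest and the 5 others lay between 15.3 and 17.1. At Atp5c1 it ran from 7.31 to 11.1. The 81 bases around the peak summit in OCR library 1 are shown on the plus strand for these genes and for Atp5l, which had a peak in 5 of 6 libraries: chr15:58933699-58933779, chr2:10080538-10080618 and chr9:44920693-44920773. Capitals mark the ETS word or its reverse complement.
Ndufb9: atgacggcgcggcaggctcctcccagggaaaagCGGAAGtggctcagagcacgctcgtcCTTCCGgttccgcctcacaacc
Atp5c1: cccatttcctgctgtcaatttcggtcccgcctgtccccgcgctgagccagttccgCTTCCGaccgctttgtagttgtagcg
Atp5l: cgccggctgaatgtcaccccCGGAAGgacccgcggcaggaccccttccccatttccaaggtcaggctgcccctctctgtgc
All 3 hold the ETS word CGGAAG, which 6.71 to 7.68% of all PU.1 peaks hold in their summit window, and none holds GAGGAA, a PU.1 word, chosen after the peaks were seen, that 46.2 to 49.9% hold. These shares are over all peaks and not only those at promoters. In the longer promoter windows above, CGGAAG was in 40.3% of members and 18.8% of all genes. Ndufb5, with a peak in 5 of 6 libraries, holds neither.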

How the data were processed

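RNA, open chromatin, histone marks and PU.1 were profiled in sorted mouse HSCs, and 50 files of 58 samples were used; old freely fed ATAC and histone libraries were not analysed here. RNA files hold raw gene counts that the authors made with STAR and featureCounts on mm10 with GENCODE M22 after trimming; libraries were made with SMART-Seq kits per the methods, while the labels name another kit, and were run on a HiSeq 2500 (diet) or NovaSeq 6000 (transplant). How multi-mapped reads and strand were treated is not given in the sources used here. ATAC files hold counts per peak as deposited. The deposited histone tables hold signal summed around each start, scaled by the authors to 10000000 reads, and the deposited PU.1 peak files of MACS2 hold a score, a fold enrichment ratio, and −log10 p-values and q-values.

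Each pair of groups was fitted alone with edgeR 4.0.16 (TMM, filterByExpr, quasi-likelihood, Benjamini-Hochberg over all genes; R 4.3.3), the interaction in 1 fit of the 4 groups it concerns. Levels are TMM-scaled CPM over each experiment. DESeq2 1.42.0, other scalings and filters, a replicate block, other samples in the fit and each library left out were alternatives; leaving libraries out of the share sums and counting without the genes in the chromosome 1 copy were added after seeing the data, as were levels per transcript length and the other scaling of the pathway lists. Diet and transplant libraries differ in sort, kit and instrument and were not compared. On simulated data with 200 genes changed 2-fold, 99.5% were recovered in OCR against OAL, with 20 false calls, and 90.5% in OCRRF against OCR, with 20. In OAL against YAL 81% were recovered (9 false calls), in YCR against YAL 64.5% (6) and in YCRRF against YCR 33% (2). The called members all changed by less than 2-fold, so these rates do not give the recovery at their sizes. Named were all mitochondrial members, the called nuclear members by adjusted p (at most 10 a direction), succinate dehydrogenase, isoform families, the highest member of each complex, and of each list at most 3 called genes. Markers, single peaks and Ndufa4l2 were picked with their values in view. The members and all lists were chosen with earlier results of these data known. No 2 libraries of a group agreed within sampling noise by a chi-square test of their counts.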

Additional observations from a re-analysis of the deposited data

Results flagged for a closer look

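Single libraries far from the others of their group were found in 11 of 132 groups of 4 libraries examined (Dixon's test at 95%), where chance flags about 1 group in 20. YCRRF replicate 3 accounts for 5 of them. It had 218 CPM of Atp5mpl where the other YCRRF libraries had 73.0 to 88.7, 181 CPM of Cox5a (others 93.5 to 106), 81.9 CPM of Ndufb6 (53.2 to 57.1), 181 CPM of Sdhb (127 to 134) and 138 CPM of Uqcrq (48.1 to 62.3). In YCR, replicate 4 had 656 CPM of mt-Nd4 (524 to 545).

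Among freely fed mice, OAL replicate 4 had 551 CPM of mt-Nd4 where the others had 501 to 506, OAL replicate 1 had 58.0 CPM of Atp5l (64.0 to 65.0), and OAL replicate 3 had a log2 ratio of the mitochondrial to the nuclear share of -0.53 (-0.38 to -0.37). YAL replicate 3 had 981 CPM of mt-Nd1 (852 to 872) and YAL replicate 1 had 101 CPM of Atp5mpl (at most 95.9). The OAL value of mt-Nd4 lay on the far side from OCR and that of Atp5l on the near side to OCRRF.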

How the results depend on the processing

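The number of members called moved with the processing in most comparisons. For OCR against OAL it was 5, and became 3 with scaling from genes at 5 CPM or more, 0 with all groups in 1 fit and 1 to 4 with a library left out. For OCRRF against OCR it was 5, and became 28 with DESeq2, 3 with scaling from genes at 5 CPM, 0 with all groups in 1 fit and 0 to 23 with a library left out. For OCRRF against OAL it was 6, and became 44 with DESeq2, 30 with DESeq2 size factors in edgeR, 0 with scaling from genes at 5 CPM, 3 with at least 10 counts in every library, 0 with all groups in 1 fit and 0 to 3 with a library left out. For OAL against YAL it was 29, and became 17 with DESeq2 size factors, 8 with scaling from genes at 5 CPM, 10 with at least 10 counts in every library, 12 with all groups in 1 fit and 9 to 46 with a library left out. YCR against YAL had 1 with DESeq2 in place of 0, and YCRRF against YCR had 1 (mt-Nd4) with no filter in place of 0. With the replicate number as a block, OCRRF against OCR had 52 members called in place of 5 and OAL against YAL 17 in place of 29; same-numbered libraries deviated together by a correlation of -0.142 to 0.145, so the numbers do not pair the libraries. Members with a PU.1 peak fell from 5 to 3 in OAL library 1 and from 5 to 3 in OCRRF library 2 with peaks of a −log10 q of at least 5 alone. YCRRF against YAL, the difference of restriction between ages, both knockdown comparisons and ATAC stayed at 0 under each alternative run. Of 471 alternative values of 29 gene results, 335 kept the call, 136 lost it and 0 changed direction. The cause of these changes was not tested. OCRRF and both scramble arms have 2 libraries, which limits every comparison with them, and with 1 of them left out the lone library is assumed to vary like the other group.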
